A study of Talpa occidentalis with 24 samples.

Results

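The chromatin of the testicular part of the ovotestis was compared with that of the testis in the Iberian mole, Talpa occidentalis, a species in which the female gonad is an ovotestis made of ovarian and testicular tissue. Both tissues came from wild-type animals at postnatal day 7, as fixed gonad tissue, and the testicular part is by its label a portion of the ovotestis. The ovotestis is the gonad of females and the testis that of males, so tissue and sex of the animal cannot be told apart here. The ovarian part of the ovotestis, from the same stage and genotype, was read only to see which state it held where the other tissues differed. Each tissue has 8 chromatin immunoprecipitation sequencing (ChIP-seq) libraries, 2 replicates of each of 4 histone marks, so that 16 of the 24 libraries of the series stand behind the comparison. The authors combined the 8 libraries of a tissue into 1 segmentation, which gives every 200 bp bin of the talOcc4 assembly 1 of 7 state names. Bins were compared by state name on all scaffolds other than 15 and 18, which left 9956704 of 10493388 bins (1991 Mb on 4452 scaffolds). No gene expression and no gene models on talOcc4 were used here, so the tissue labels could not be checked against marker genes, and regions are given by scaffold and position, counted from 1, without gene names.

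The histone mark H3K4me3 is found at promoters, H3K4me1 at enhancers, and H3K27ac at promoters and enhancers that are active. H3K27me3 is laid down by Polycomb complexes, which hold developmental genes silent, and a promoter that carries H3K4me3 and H3K27me3 together is known as bivalent. An enhancer with H3K4me1 but little H3K27ac is known as poised. In the gonads, Polycomb complexes are known from mouse to keep genes of the other sex silent.

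The tables have no replicates and no read counts: there is 1 segmentation per tissue, the depth behind a state is unknown, and no test between the tissues could be made. Differences below are therefore descriptions of these segmentations. Spread is given along the genome, over the 16 large scaffolds (1 to 14, 16 and 17, between 59.1 and 156 Mb long), and the Wilson 95% intervals beside shares of segments reflect counting error alone. In tissue made of many cell types, a mark present in fewer cells and a weaker mark in each cell cannot be told apart. Scaffolds 15 and 18 differed in state between the tissues over 72.3% of their bins and are not described here.

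The testicular part and the testis carried the same state in 76.9% of bins and a different state in 2295573 bins, 23.1% of those compared. On the 16 large scaffolds 2219159 of 9580688 bins differed, which is 23.2%. The share of differing bins per scaffold was between 20.9% on scaffold 6 and 25.9% on scaffold 12, with a median of 23.5%, so that no large scaffold stood far from the others. On the other 4436 scaffolds, which are small, 20.3% of bins differed.

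Most of the differing bins belonged to few pairs of states. The exchange between the poised enhancer and the undefined state made up 52.1% of them, and it ran in both directions at nearly the same rate: 577190 bins were poised in the testicular part and undefined in testis, against 618725 the other way. The exchange between the Polycomb and the undefined state came next with 18.1%, followed by the exchange between active and poised enhancer with 13.7% and that between undefined and gap with 8.48%. Direct exchanges between an active and a Polycomb state were rare. Bins that were active enhancer in one tissue and Polycomb in the other made up 0.200% of the differing bins, and bins that were promoter in one and Polycomb in the other made up 0.0317%.

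**Figure D1:**
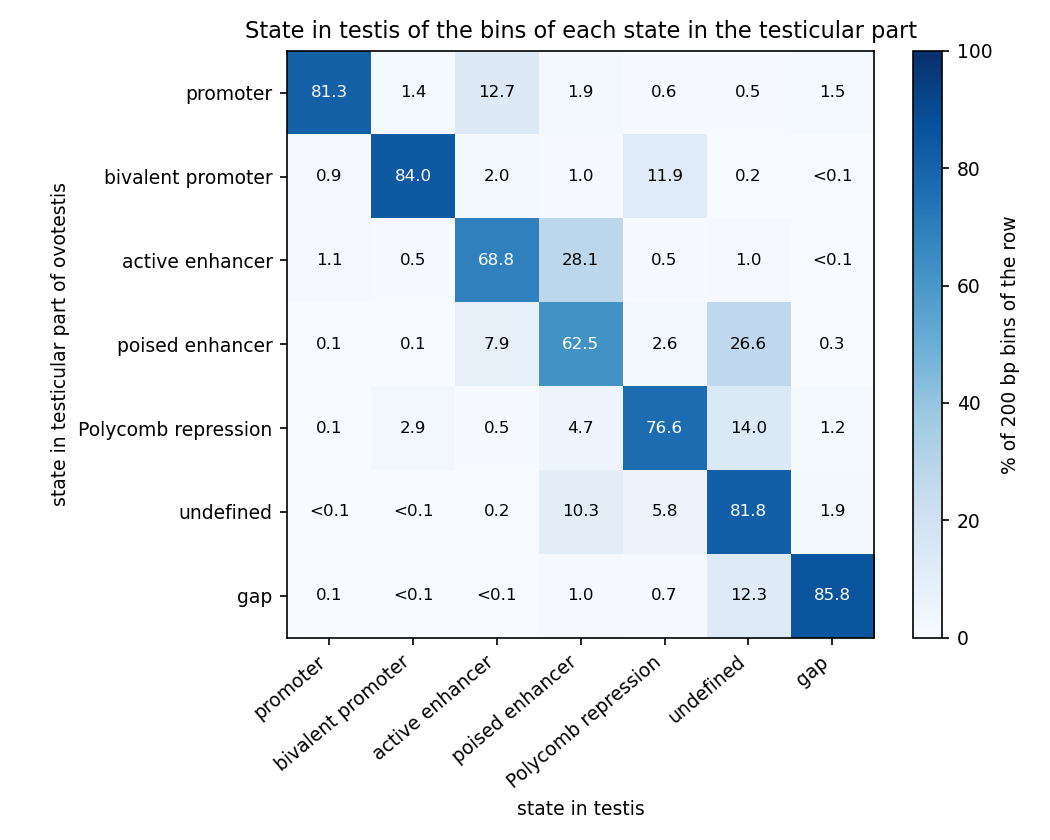
Each row takes the 200 bp bins of 1 state in the testicular part and gives the percent of them in each state in testis (columns), as numbers and as colour. The diagonal, where the state was the same, lies between 62.5% for the poised enhancer and 85.8% for the gap state, and the largest off-diagonal cells are active enhancer to poised enhancer and poised enhancer to undefined.

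The Polycomb repression state had the coverage ratio farthest from 1 among the 7 states, while in bases the undefined state differed more, being 72.8 Mb larger in the testicular part. The Polycomb state covered 4.85% of the compared bases in the testicular part (96.6 Mb) and 7.94% in testis (158 Mb), a ratio of 0.611. The ovarian part, with 4.99%, lay close to the testicular part. The ratio was below 1 on 16 of 16 large scaffolds, between 0.545 on scaffold 13 and 0.716 on scaffold 2, with a median of 0.584. This ratio rests on leaving out scaffolds 15 and 18, a choice made with their Polycomb profiles known: with them included it was 0.968.

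**Figure D2:**
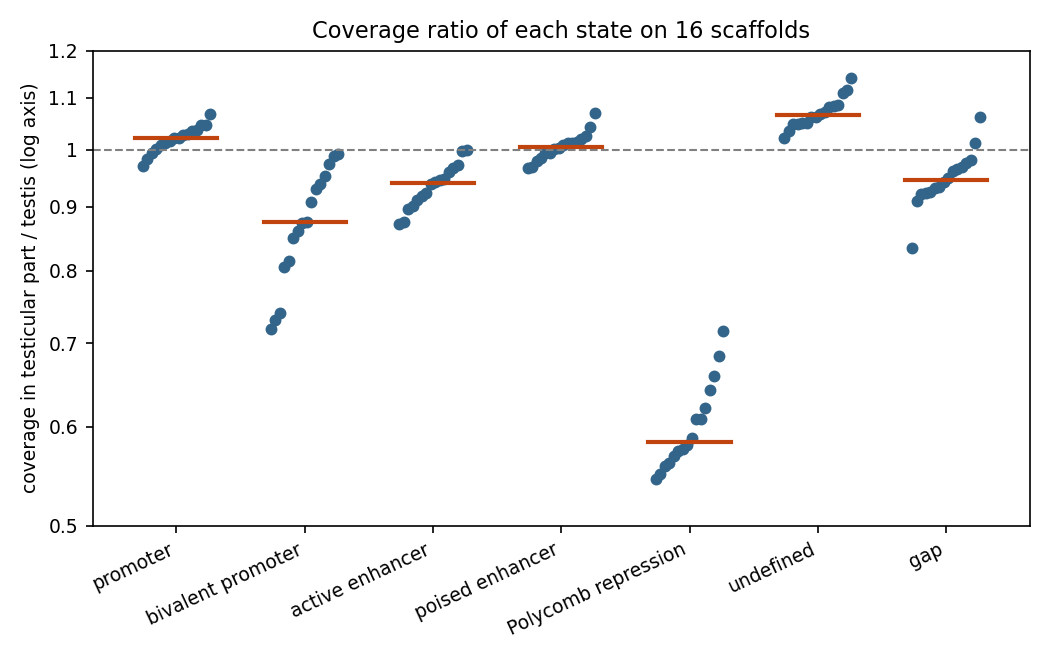
Each point is the coverage of a state in the testicular part divided by that in testis on 1 of 16 large scaffolds (log axis), and the bar is the median over scaffolds. All Polycomb points lie between 0.545 and 0.716, while the points of the promoter state lie between 0.971 and 1.07.

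Polycomb bases of the testicular part were mostly Polycomb in testis too, but the reverse held less often. Of the Polycomb bins of the testicular part 76.6% had that state in testis, and of those of the testis 46.8% were Polycomb in the testicular part. The bins that were not shared measured 22.6 Mb in the testicular part and 84.2 Mb in testis. The Polycomb state of the testicular part was 61.6 Mb less extensive, and the exchange with the undefined state gave 56.2 Mb of this. In all, 348682 bins were undefined in the testicular part and Polycomb in testis, 5.14 times as many as the 67796 bins that were Polycomb in the testicular part and undefined in testis. The first count was larger on 16 of 16 large scaffolds. A further 56484 bins were poised enhancer in the testicular part and Polycomb in testis, 2.47 times the 22860 bins of the opposite pair, again with the same direction on 16 of 16 scaffolds. Against the active enhancer state the 2 directions were close, with 2376 bins active in the testicular part and Polycomb in testis and 2225 bins the other way.

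The ovarian part mostly lacked the Polycomb state where only 1 of the other tissues had it. It still held that state there more often than over all compared bins, of which 4.99% were Polycomb in the ovarian part. Of the bins that were Polycomb in the testicular part only, 29.8% were Polycomb in the ovarian part, and 53.8% had there the state they had in testis. Of the bins that were Polycomb in testis only, 20.9% were Polycomb in the ovarian part, 61.1% were undefined there and 14.7% were poised enhancer. Both readings use the same ovarian segmentation.

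Polycomb segments, the uninterrupted stretches of that state, were fewer and shorter in the testicular part. There were 33125 of them in the testicular part and 46364 in testis. Their median length was 2000 bp in the testicular part and 2200 bp in testis. The length at which 50% of the Polycomb bases lie in longer segments, the length-weighted median, was 4800 bp in the testicular part and 5800 bp in testis. Segments of 10 kb or longer numbered 1340 in the testicular part, with 20.3% of its Polycomb bases, and 2779 in testis, with 27.1%. The longest Polycomb segment of the testicular part measured 60.6 kb, on scaffold 12 at 4522201 to 4582800, and was Polycomb over 100% of its length in testis and 98.0% in the ovarian part. The longest of the testis measured 81.4 kb, on scaffold 17 at 2789001 to 2870400. In the testicular part 63.6% of that stretch was Polycomb, 28.5% undefined and 6.14% poised enhancer, and in the ovarian part 47.7% of it was Polycomb.

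Whether a Polycomb segment had a counterpart depended on the tissue it was taken from. Of the Polycomb segments of the testicular part 78.6% (interval 78.2 to 79.1) held at least 1 bin that was Polycomb in testis, and of those of the testis 56.4% (55.9 to 56.8) held at least 1 bin that was Polycomb in the testicular part. More Polycomb state in testis by itself gives segments of the testicular part more to meet. Among segments of 2000 bp or longer the shares were 87.6% in the testicular part and 60.6% in testis, and among segments of 10 kb or longer they were 98.2% and 87.9% in the same order. Of the long segments without any counterpart there were 24 in the testicular part and 335 in testis. Of these, 9 of the 24 and 204 of the 335 also held no Polycomb bin in the ovarian part. How many of all long segments lacked it there is not given here, so these counts have no reference.

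The unshared Polycomb bins were whole segments more often than frayed ends. In the testicular part 49.1% of the unshared Polycomb bins lay in segments with no shared bin, 41.5% at the ends of shared segments and 9.44% inside them. In the testis 60.3% lay in segments with no shared bin, 33.9% at ends and 5.81% inside. Unshared Polycomb bins of the testicular part had a median distance of 2200 bp to the nearest Polycomb bin of the testis, and 25.3% of them lay farther than 10 kb from one. Those of the testis had a median distance of 6800 bp to the nearest Polycomb bin of the testicular part, with 42.8% beyond 10 kb. The 20236 Polycomb segments of the testis without a counterpart measured 50.8 Mb, of which 84.8% was undefined and 13.4% poised enhancer in the testicular part. The 7074 segments of the testicular part without a counterpart measured 11.1 Mb, of which 68.1% was undefined and 21.9% poised enhancer in testis.

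**Figure D3:**
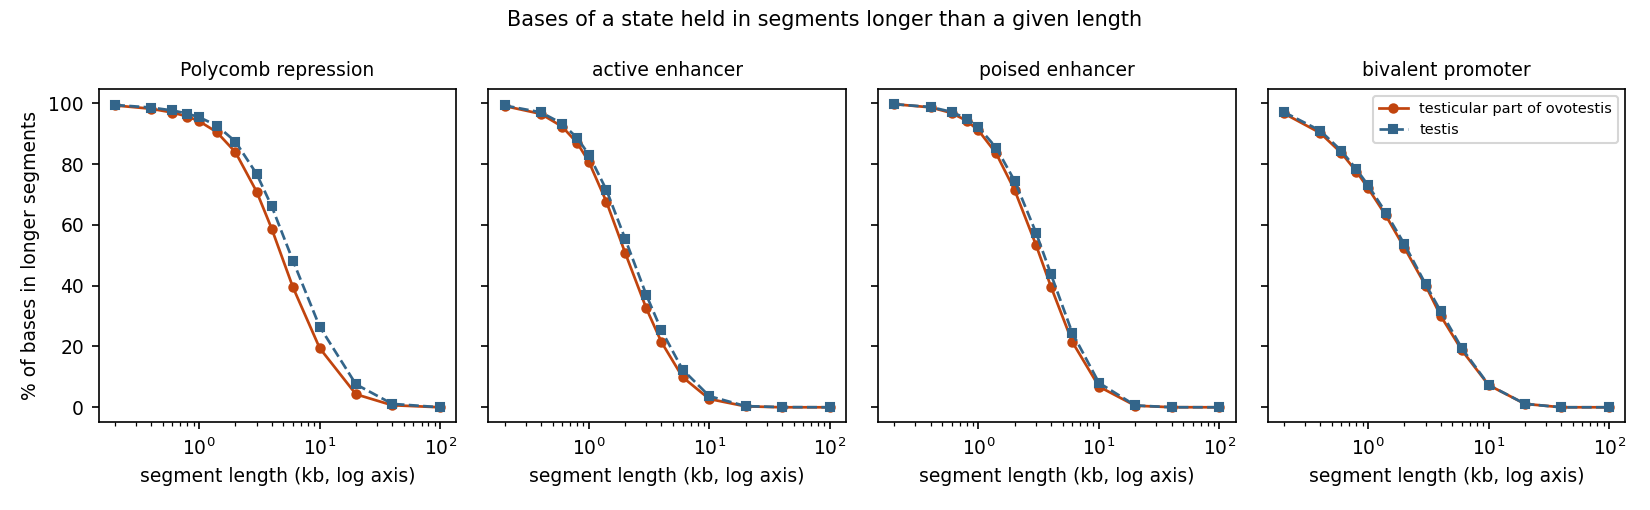
For 4 states, the percent of the bases of that state that lie in segments longer than the length on the x axis (kb, log axis) is drawn for the testicular part (circles, solid line) and the testis (squares, dashed line). At 10 kb the Polycomb curves stand at 19.5% in the testicular part and 26.5% in testis, while the bivalent curves stand at 7.29% and 7.37%.

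The active enhancer state covered slightly less of the genome in the testicular part, and its places were only partly shared. It took 5.12% of bases (102 Mb) in the testicular part and 5.47% (109 Mb) in testis, a ratio of 0.936. The ratio was below 1 on 16 of 16 large scaffolds, between 0.871 on scaffold 9 and 0.999 on scaffold 13. Of the active enhancer bins of the testicular part 68.8% were also active enhancer in testis, and of those of the testis 64.4% were active enhancer in the testicular part. Where the testicular part alone was active, the testis was mostly poised: 143058 bins were active in the testicular part and poised in testis, against 171530 bins that were poised in the testicular part and active in testis. The second count was the larger on 14 of 16 large scaffolds. Between active enhancer and undefined, 5225 bins were active in the testicular part and undefined in testis, and 11307 were undefined in the testicular part and active in testis, with the same direction on 16 of 16 scaffolds.

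Active enhancer segments were nearly equal in number, 65642 in the testicular part and 64847 in testis, and differed in length. Their mean length was 1553 bp in the testicular part and 1679 bp in testis, and the median was 1200 bp in both. Segments of 10 kb or longer numbered 221 in the testicular part and 331 in testis. All 221 of the testicular part, and 99.7% of the 331 of the testis, held at least 1 active enhancer bin of the other tissue. The longest active enhancer segment of the testicular part, 33.4 kb on scaffold 9 at 82996401 to 83029800, was active over 88.0% of its length in testis and over 25.7% in the ovarian part. The longest of the testis, 56.4 kb on scaffold 8 at 36969201 to 37025600, was active over 91.8% of its length in the testicular part and over 87.6% in the ovarian part. Of the bases in segments of 10 kb or longer, 87.5% of those of the testicular part and 78.4% of those of the testis were active enhancer in the other tissue.

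A counterpart was found for active enhancer segments about equally often from either side. Of the segments of the testicular part 73.7% (interval 73.3 to 74.0) held an active enhancer bin of the testis, and of those of the testis 73.4% (73.0 to 73.7) held one of the testicular part. Segments without a counterpart numbered 17288 in the testicular part, of which 1483 were 2000 bp or longer, and 17265 in testis, of which 2294 were. Those of the testicular part were poised enhancer over 88.8% and undefined over 5.74% of their bases in testis. Those of the testis were poised enhancer over 85.6% and undefined over 10.6% of their bases in the testicular part. At these places the ovarian part was active enhancer over 26.1% of the bases where the segment belonged to the testicular part and over 12.8% where it belonged to the testis.

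The poised enhancer state covered 21.8% of bases in the testicular part and 21.6% in testis, and its ratio per scaffold lay between 0.966 and 1.07. It had the lowest sharing of the 7 states from the side of the testicular part and the second lowest of all states from the side of the testis. Of the poised bins of the testicular part 62.5% were poised in testis, and of those of the testis 63.1% were poised in the testicular part. Poised segments numbered 188080 in the testicular part, with a mean length of 2310 bp, and 174864 in testis, with a mean of 2460 bp. Extents were thus nearly equal, while 37.5% of the poised bins of the testicular part and 36.9% of those of the testis were not shared.

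Promoters were the part of the active chromatin that the tissues shared most. The promoter state covered 0.587% of bases in the testicular part and 0.575% in testis, a ratio of 1.02, and the ratio was above 1 on 13 of 16 large scaffolds. Promoter segments numbered 16691 in the testicular part and 16637 in testis, with a median of 600 bp in both. Of the promoter segments of the testicular part 85.9% (interval 85.4 to 86.4) held a promoter bin of the testis, and of those of the testis 86.6% (86.0 to 87.1) held one of the testicular part. Among promoter segments of 2000 bp or longer 7 of 571 in the testicular part and 18 of 549 in testis had no counterpart. Unshared promoter bins were mostly at segment ends, 56.2% in the testicular part and 50.8% in testis. The most frequent exchange was with the active enhancer state, with 7440 bins that were promoter in the testicular part and active enhancer in testis and 5640 bins the other way. This direction held on 15 of 16 large scaffolds.

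The bivalent promoter state was less extensive in the testicular part. It covered 0.687% of bases in the testicular part and 0.771% in testis, a ratio of 0.891 that was below 1 on 16 of 16 large scaffolds, between 0.719 on scaffold 16 and 0.991 on scaffold 4. Bivalent segments numbered 11203 in the testicular part and 12094 in testis, both with a median of 600 bp. Of the bivalent bins of the testicular part 84.0% were bivalent in testis, and of those of the testis 74.9% were bivalent in the testicular part. The main exchange was with the Polycomb state and ran against the general direction of that state. Bins that were Polycomb in the testicular part and bivalent in testis numbered 13845, against 8161 bins that were bivalent in the testicular part and Polycomb in testis, with the first count larger on 16 of 16 scaffolds. Bins that were active enhancer in the testicular part and bivalent in testis numbered 2737, against 1348 the other way.

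Long bivalent segments were shared. All 81 bivalent segments of 10 kb or longer in the testicular part and all 91 in testis held bivalent bins of the other tissue, and 96.7% of their bases in the testicular part and 93.1% in testis were bivalent in the other tissue as well. The longest bivalent segment on the large scaffolds measured 22 kb in the testicular part, on scaffold 2 at 33737801 to 33759800, and was bivalent over 97.3% of its length in testis. The longest of the testis measured 21.8 kb, on scaffold 7 at 119309401 to 119331200, and was bivalent over 99.1% of its length in the testicular part. Both were bivalent over 100% of their length in the ovarian part.

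The undefined state covered 60.4% of bases in the testicular part and 56.8% in testis. Its ratio of 1.06 was above 1 on 16 of 16 large scaffolds. The gap state covered 6.53% of bases in the testicular part and 6.89% in testis, and what it stands for is not given in the sources used here. Bins that were undefined in the testicular part and gap in testis numbered 114917, against 79821 bins that were gap in the testicular part and undefined in testis. Gap segments numbered 96768 in the testicular part and 114937 in testis.

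Differing bins were more frequent at the borders of segments, but most lay inside them. The higher share at borders is partly built in, because a run of differing bins can begin or end only where a tissue changes state. The first and last bins of segments in either tissue made up 19.3% of bins, and 44.0% of these differed in state. Of the other bins 18.03% differed, and they held 63.1% of all differing bins.

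Along the 16 large scaffolds the differing bins formed 412735 runs with a median length of 600 bp and a longest of 40.8 kb. Of these runs 28.02% were a single bin. Runs of 2 kb or longer numbered 64829 and held 51.8% of the differing bins. When a bin differed, the next bin differed in 81.4% of cases, the bin 1 kb away in 50.1%, the bin 5 kb away in 29.3%, the bin 100 kb away in 25.4% and the bin 1 Mb away in 24.0%, against 23.2% of all bins. Clustering was thus strongest over a few kilobases, the scale of single segments. This is largely built in, because neighbouring bins mostly lie in the same segment of each tissue and then differ together.

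The runs of different pairs of states had different lengths. Bins that were undefined in the testicular part and Polycomb in testis formed 31339 runs with a length-weighted median of 3400 bp, the highest value of any pair of states. The longest such run measured 27.6 kb, on scaffold 1 at 100392601 to 100420200, and 98.6% of it was undefined in the ovarian part. Bins of the opposite pair, Polycomb in the testicular part and undefined in testis, formed 9285 runs with a length-weighted median of 2200 bp, yet their longest run was longer, 35.0 kb on scaffold 10 at 77701201 to 77736200. Bins that were active enhancer in the testicular part and poised in testis formed 40547 runs with a length-weighted median of 1000 bp, and the longest measured 7.4 kb, on scaffold 3 at 136370601 to 136378000. The opposite pair formed 44201 runs with a length-weighted median of 1200 bp, and the longest measured 10 kb, on scaffold 3 at 64110601 to 64120600. Promoter and active enhancer bins were exchanged in runs that were a single bin in 75.6% of cases where the testicular part held the promoter state and in 77.5% of cases where the testis did.

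The scaffolds held 18805 windows of 100 kb that were under 50% gap in both tissues, and the share of differing bins per window had a median of 22.8%. It was 7.2% at the 5th percentile, 41.2% at the 95th and 87.8% in the highest window. Adjoining windows had a Pearson correlation of 0.486 over 18722 pairs, and the share of differing bins had one of 0.411 with the enhancer cover of the testicular part over the 18805 windows. Both are given as descriptions with no p, since windows of the same scaffolds are not independent and differing bins and enhancer cover come from the same segmentation.

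Windows that differed by at least 10 percentage points in Polycomb cover were mostly windows in which the testicular part held less. In 168 windows (0.893%) the Polycomb state was at least 10 points higher in the testicular part than in testis, and in 2191 windows (11.7%) it was at least 10 points lower. In the windows where it was lower, the Polycomb state averaged 12.9% in the testicular part and 31.7% in testis, and the undefined state was 16.05 points higher in the testicular part. The active enhancer state of the same windows averaged 3.55% in the testicular part and 3.13% in testis, so that the lower Polycomb cover went with undefined bins and hardly with active ones. The ovarian part averaged 14.3% of Polycomb state there. In the windows where the Polycomb state was higher in the testicular part, it averaged 33.1% in the testicular part and 16.7% in testis, with 20.3% in the ovarian part. All these windows were picked on the difference given.

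Where the testicular part was rich in Polycomb state, the testis usually was too. The 373 windows with more than 40% of Polycomb state in the testicular part averaged 53.9% in the testicular part and 58.5% in testis, and the testis was the higher in 262 of them. In 714 windows the testicular part held some Polycomb state and the testis none, and in 3463 windows the testis held some and the testicular part none. With a limit of 10% these counts were 15 windows where it was found in the testicular part and 319 where it was found in testis.

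**Figure D4:**
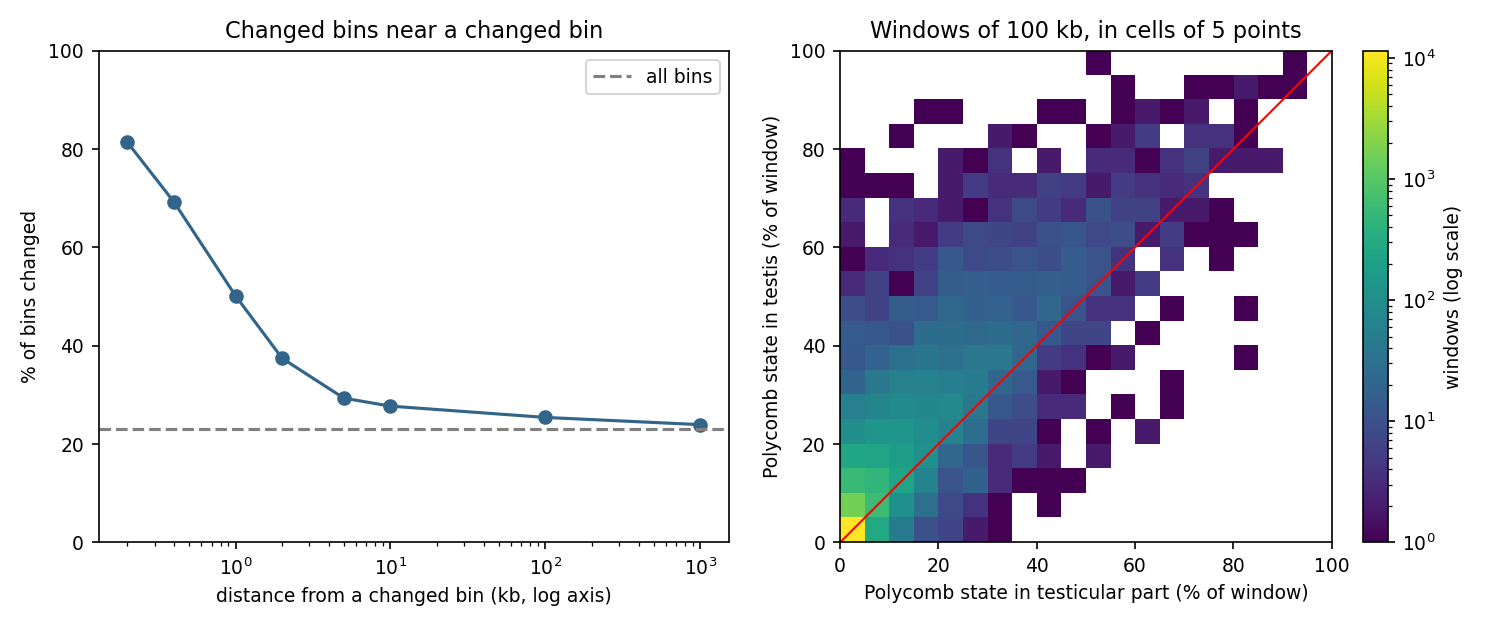
Left, the percent of bins that differ between testicular part and testis at a given distance from a differing bin (kb, log axis), with all bins as the dashed line; right, windows of 100 kb by the percent in the Polycomb state in the testicular part (x) and the testis (y), coloured by the number of windows (log scale), with equality as the red line. The curve declines from 81.4% for the next bin to 24.0% at 1 Mb, and most windows off the line lie above it, where the testis is the higher.

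The windows with lower Polycomb cover adjoined each other in part. Of the 2191, 1219 stood next to at least 1 other, and the longest unbroken block measured 1.4 Mb, on scaffold 17 at 2500201 to 3900200. It held 21.9% of Polycomb state in the testicular part and 60.4% in testis, and the ovarian part held 14.9%. The share of a scaffold's windows with lower Polycomb cover lay between 6.49% on scaffold 4 and 22.5% on scaffold 17. The longest block with higher Polycomb cover in the testicular part measured 0.6 Mb, on scaffold 2 at 34900201 to 35500200, with 42.9% in the testicular part, 19.2% in testis and 26.1% in the ovarian part.

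The window with the most differing bins, 87.8%, was also the one with the largest deficit of Polycomb state. It lies on scaffold 2 at 144600201 to 144700200 and held 0% of Polycomb state in the testicular part and 75.4% in testis, with 73.6% in the ovarian part. Its active enhancer cover was 6.8% in the testicular part and 0% in testis, and its poised cover was 23.6% in the testicular part and 7.4% in testis. It belongs to a stretch of 859 kb without any Polycomb bin in the testicular part, at 144156801 to 145015800. Of this stretch 28.4% was Polycomb in testis, and 23.7% was Polycomb in the ovarian part. The stretch held 28 active enhancer segments in the testicular part and 10 in testis, with 9 in the ovarian part. The window was picked for its difference from testis, and the stretch was bounded by the nearest Polycomb bins of the testicular part. The 0% of Polycomb state in the testicular part is therefore fixed by the choice of the stretch. The Polycomb cover of the ovarian part was nearer to that of the testis here.

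**Figure D5:**
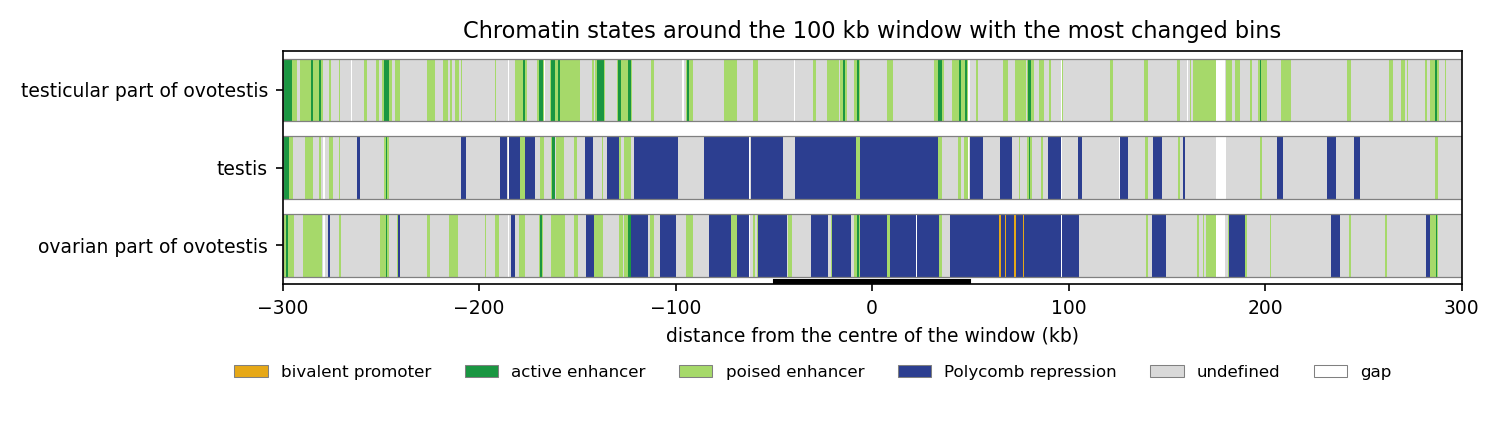
Chromatin states of the testicular part, the testis and the ovarian part over 600 kb centred on the 100 kb window with the most differing bins (black bar), with the distance from its centre in kb on the x axis. The Polycomb state covers 0% of this span in the testicular part, 33.8% in testis and 32.8% in the ovarian part.

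At most of the other named windows with large Polycomb deficits the ovarian part was nearer to the testicular part. Scaffold 11 at 76500201 to 76600200 held 10% of Polycomb state in the testicular part and 82.2% in testis, with 30.2% in the ovarian part. Scaffold 12 at 9900201 to 10000200 held 3.8% in the testicular part and 71.8% in testis, with 5% in the ovarian part. Its active enhancer cover was 13.2% in the testicular part, 2.8% in testis and 10% in the ovarian part. On the same scaffold, the window at 75000201 to 75100200 held 6.8% in the testicular part and 74.8% in testis, with 4.6% in the ovarian part. Scaffold 17 at 3000201 to 3100200, inside the block of 1.4 Mb, held 18.6% in the testicular part and 87.2% in testis, with 29.2% in the ovarian part. Scaffold 6 at 53800201 to 53900200, among the 5 windows with the most differing bins, held 1.2% of Polycomb and 56.4% of poised state in the testicular part, against 66.8% and 11.4% in testis. The ovarian part held there 0% of Polycomb and 57.4% of poised state. An exception was scaffold 2 at 144500201 to 144600200, next to the window with the most differing bins. It held 0% of Polycomb state in the testicular part and 67.6% in testis, with 46.2% in the ovarian part. All these windows were picked for a large difference between testicular part and testis. With high cover in testis, this choice by itself favours an ovarian value nearer to the testicular part.

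The largest excesses of Polycomb state in the testicular part were smaller than the largest deficits. On scaffold 10 at 77600201 to 77700200 it covered 84.2% in the testicular part and 35.4% in testis, with 48.4% in the ovarian part. This window ends 1 kb before the longest run that was Polycomb in the testicular part and undefined in testis. On scaffold 5 at 133100201 to 133200200 it covered 69.2% in the testicular part and 27.6% in testis, with 6.4% in the ovarian part. On scaffold 2 at 32000201 to 32100200 it covered 63.4% in the testicular part and 23.2% in testis, with 2.8% in the ovarian part. On scaffold 7 at 46500201 to 46600200 it covered 60.2% in the testicular part and 20.2% in testis, with 3.4% in the ovarian part. On scaffold 2 at 37600201 to 37700200 it covered 69.8% in the testicular part and 30.8% in testis, with 21.4% in the ovarian part. Both windows of scaffold 2 lie in the wider region around the longest block with higher cover. In all 5 windows the testicular part stood above both other tissues. The windows were picked for more Polycomb state in the testicular part than in testis. The ovarian part held 4.99% of Polycomb state over all compared bins, so this choice by itself favours a lower value there. The position of the ovarian part in these windows therefore has no reference.

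Windows that differed in active enhancer cover were fewer and less one-sided. In 204 windows (1.08%) the active enhancer state was at least 10 points higher in the testicular part, and in 450 windows (2.39%) it was at least 10 points lower. In the windows where it was higher it averaged 24.7% in the testicular part and 11.1% in testis, and the ovarian part averaged 13.1%. In the windows where it was lower it averaged 13.1% in the testicular part and 26.9% in testis, and the ovarian part averaged 11.1%. Of the 204 windows with higher active cover, 20 (9.80%) had at least 10 points less Polycomb state in the testicular part, near the 11.7% of all windows. Of the 450 with lower active cover, 11 (2.44%) had at least 10 points more, against 0.893% of all windows. As many of the 450, 11 (2.44%), had at least 10 points less, against 11.7% of all windows. Their mean Polycomb difference, testicular part minus testis, was -0.130 points.

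Most windows named for active enhancer cover differed in the opposite direction in the poised or the undefined state, and others did so in the Polycomb and bivalent states. On scaffold 9 at 58200201 to 58300200 the active enhancer state covered 41.8% in the testicular part and 16.4% in testis, with 16% in the ovarian part, and no tissue held Polycomb state there. On scaffold 7 at 14700201 to 14800200 it covered 37.6% in the testicular part and 14% in testis, with 15.4% in the ovarian part. Scaffold 2 at 34700201 to 34800200 held 30.8% of active enhancer and 24.4% of Polycomb state in the testicular part, against 8% and 49.6% in testis. Scaffold 16 at 79800201 to 79900200 held 29.2% of active enhancer state in the testicular part and 6.8% in testis. Its Polycomb state was 10.8% and its bivalent state 14.4% in the testicular part, against 46.6% and 32.8% in testis. In the other direction, scaffold 5 at 127800201 to 127900200 held 1.4% of active enhancer and 57.6% of undefined state in the testicular part, against 32% and 11.4% in testis. On scaffold 4 at 133900201 to 134000200 the active enhancer state covered 39.6% in the testicular part and 67.6% in testis, with 15.4% in the ovarian part. The longest block with lower active cover measured 0.4 Mb, on scaffold 2 at 49200201 to 49600200, with 3.75% in the testicular part and 28.1% in testis. The longest with higher active cover measured 0.3 Mb, on scaffold 3 at 93000201 to 93300200, with 31.8% in the testicular part and 18.7% in testis.

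At the differing bins as a whole, the ovarian part had the state of the testicular part in 52.2%, the state of the testis in 41.1% and another state in 6.73%. Where the testicular part alone among the compared tissues was active enhancer, the ovarian part was active enhancer in 28.1% of bins and had the state of the testis in 63.9%. Where the testis alone was active enhancer, the ovarian part was active enhancer in 16.99% and had the state of the testicular part in 69.7%. Where the testicular part alone was promoter, the ovarian part was promoter in 49.2%, and where the testis alone was promoter, in 42.1%. These shares depend on how much of each state the ovarian part carries, which for active enhancer was 3.69% of bases and for promoter 0.664%. Both parts belong to the ovotestis of females, while the testis is from males, and what this contributes to the shares was not tested.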

How the data were processed

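The deposited tables give a chromatin state name (no read counts and no score) for each segment of the talOcc4 assembly, in steps of 200 bp, and the authors combined 4 marks and 2 replicates per mark into 1 segmentation per tissue, per the labels. The version or name of the segmentation tool, the relation of states to marks and the depth are not stated by any label or header used for the mole tables. STAR 2.6.1d and mm9, a mouse build, are listed without a role in the submitters' processing notes. Segments were cut into 200 bp bins and compared by state name with Python 3.11.15, numpy 2.4.6 and pandas 2.3.3, and drawn with matplotlib 3.10.9; the code was tested on simulated data. No column was left unmapped.

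Scaffolds 15 and 18 were left out, and windows of 100 kb were kept where each tissue had less than 50% of gap state. The regions named are, on scaffolds 1 to 14, 16 and 17, the 5 windows with the most differing bins, the 5 with the largest net difference in Polycomb and in active enhancer state in each direction, the longest run of a pair of states and the longest segment of each state; blocks and the Polycomb-free stretch were added after the first values had been seen. The comparison, the scaffolds left out and these rules were chosen with earlier results of these data known. Alternatives covered the gap state, scaffolds, segment edges, merged states, segment length measures, overlap limits and window sizes. Gene models on other assemblies were not used here.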

Additional observations from a re-analysis of the deposited data

How the results depend on the processing

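The share of differing bins, 23.1%, was 22.6% without bins in the gap state, 23.2% on the 16 large scaffolds, 25.6% with scaffolds 15 and 18, 18.03% without the first and last bins of segments and 19.9% with states merged into 5 classes. The Polycomb coverage ratio, 0.611, was 0.607 without gap bins, 0.608 on the large scaffolds, 0.603 without edge bins and 0.968 with scaffolds 15 and 18. The ratio of Polycomb segment lengths (testicular part over testis, length-weighted medians), 0.828, was 0.909 by plain medians, 0.855 by means, 0.862 for segments of at least 400 bp, 0.806 with segments 1 bin apart joined and 0.833 on the large scaffolds. Of the Polycomb segments of the testis 56.4% had a counterpart, 47.3% when 50% of the segment had to be shared and 55.7% on the large scaffolds. The 95th over the 5th percentile of differing bins per window, 5.72, was 11.75 with 40 kb, 4.44 with 200 kb and 2.899 with 1 Mb windows, and 7.25 without gap bins. The next bin differed in 81.4% of cases, and in 84.3% without gap bins. Windows with lower per window with higher Polycomb cover, 13.0, became 25.4 with a limit of 20 points, 7.29 with 40 kb and 57.5 with 1 Mb windows. These ratios can rest on few windows with higher cover: at the limit of 20 points there were 28, against 711 with lower cover. The counts behind the 40 kb and 1 Mb values are not given here. The means and the last 3 alternatives were chosen after seeing the data. The other 12 results gave 51 values under alternatives, of which 21 counted as unmoved and 30 as moved. A share of segments counted as unmoved when it stayed inside its Wilson interval. Ratios have no interval and counted as unmoved only when the rounded value was the same, so that small shifts also count as moved. None changed its direction, though the length ratios of active enhancer, bivalent, promoter and undefined segments became 1 under some settings. No paired analysis was possible because the tables give no values per library, and for the same reason no replicate could be left out. Depth is unknown, so a state missing from a bin cannot be told apart from one not detected.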

Other observations

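Position along the 16 large scaffolds went with the Polycomb state in both tissues. In the first and last 1 Mb it covered 8.69% in the testicular part and 10.97% in testis, with the gap state at 52.2% in the testicular part and 49.3% in testis. Between 1 and 5 Mb from an end it covered 8.98% in the testicular part and 14.1% in testis, and farther inside 4.42% in the testicular part and 7.38% in testis. The share of differing bins was 19.3%, 25.6% and 23.1% in these zones, in the order given. The part of the gap state in these values was not tested.

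Bivalent segments without a counterpart were mostly Polycomb in the other tissue. The 2293 of the testicular part were Polycomb over 65.4% of their bases in testis, and the 3386 of the testis were Polycomb over 60.2% of theirs in the testicular part. Among the bases of the first set 15.4% were active enhancer in testis, and of those of the testis 17.2% were active enhancer in the testicular part. Among the 97 bivalent segments of the testis that were 2000 bp or longer and had no counterpart, 31.3% of bases were active enhancer in the testicular part.

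The longest run that was active enhancer in the testicular part and bivalent in testis measured 8.8 kb, on scaffold 16 at 79815801 to 79824600, and 86.4% of it was active enhancer in the ovarian part. The longest that was bivalent in the testicular part and Polycomb in testis measured 5.2 kb, on scaffold 2 at 39862201 to 39867400, and 84.6% of it was bivalent in the ovarian part.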
